A study of Mus musculus with 6 samples.

Results

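The genes described here encode transporters that move metal ions and calcium across membranes: the sodium/calcium exchangers (Slc8 and Slc24), the iron and manganese importers (Slc11), the iron exporter (Slc40), copper importers (Slc31) and copper pumps (Atp7), zinc transporters (Slc30 and Slc39) and magnesium transporters (Slc41). They were taken by symbol, as every gene whose symbol starts with 1 of these 8 Slc family names followed by "a" and a number. Atp7a and Atp7b were added, and the choice was made with earlier results of these data known. The array measured 39 such genes with a probe set carrying exactly 1 gene symbol, out of 22180 genes in all, and each of the 39 had 1 such probe set. Slc24a5, Slc30a1 and Slc30a10 stood only on probe sets that carry several symbols and are not analysed here.

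Cells keep free metal ions scarce, and each metal has its own importers, exporters and organelle pumps. Slc39 (ZIP) proteins bring zinc into the cytosol and Slc30 (ZnT) proteins move it out of the cytosol, into organelles or out of the cell. In pigment cells copper is of particular interest, because tyrosinase, the first enzyme of melanin synthesis, is a copper enzyme that receives its metal through ATP7A. Slc24 exchangers use the sodium and potassium gradients to move calcium, and members of this family are known for effects on pigmentation.

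Gene expression was measured on 1-colour Affymetrix arrays in 2 immortal mouse melanocyte lines with 3 arrays each. The control line, melan-Ink4a-Arf-1, which the labels also call melan-a, carries Cdkn2a tm1RDp/tm1RDp and intact Sox10. The other line, called heterozygous here, is Sox10LacZ/+ on an Ink4a-Arf null background and was derived from mice of 3 days of age, so per the labels Ink4a-Arf (Cdkn2a) is disrupted in both lines. Both come from mice backcrossed to C57BL/6J and were cultured in medium with 10% serum, 200 nM 12-O-tetradecanoylphorbol 13-acetate (a phorbol ester) and 200 pM cholera toxin. Each genotype is 1 cell line, so genotype cannot be told apart from any other difference between the lines. The labels do not say whether replicates were separate cultures, so p-values speak of the spread among arrays only.

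Signals are log2 values, and a difference is heterozygous minus wild type on that scale. Sox10 differed by −0.18 (95% confidence interval −0.37 to 0.005; adjusted p 0.213 by limma), and Cdkn2a had 7.16 ± 0.12 in the wild-type and 7.07 ± 0.08 in the heterozygous line, which is not dim. Both have a probe set of unstated position in the transcript, so neither value checks the labels. Array medians lay between 5.72 and 5.79. Wild-type replicate 2 stood apart, since 261 genes on it were 2-fold or more away from the average of replicates 1 and 3; among the transporters this applied to Slc24a4 alone. Of 11 melanocyte markers 0 were dim in both lines (a mean signal under 5.20, the 40th percentile among probe sets), 5 were lower (Dct, Gpr143, Mc1r, Oca2 and Tyr) and 2 higher (Mitf and Rab27a) in the heterozygous line, and the list had a mean signal of 10.98 to 11.27 in wild-type and 10.74 to 10.80 in heterozygous arrays. Of 15 fibroblast markers 4 were higher in the heterozygous line (Dcn by 5.92, Pdgfrb by 4.08, Fbln1 by 3.18 and Col1a2 by 1.24). The other 11 did not pass. The mean signal over this list was 5.83 to 5.87 in wild-type and 6.87 to 6.90 in heterozygous arrays. Of 13 endothelial and smooth muscle markers 5 were higher (Acta2 5.34, Eng 1.01, Tagln 0.94, Cnn1 0.44 and Vwf 0.38). The other 8 did not pass, and the list means were 5.93 to 5.97 and 6.56 to 6.63. Of 7 Schwann cell markers 3 were lower (Ngfr −3.61, S100b −2.70 and Pmp22 −0.42). The other 4 did not pass, and the list means were 7.72 to 7.88 and 6.67 to 6.76. Of 14 keratinocyte markers 0 passed by limma, and 3 had an unadjusted p below 0.05, where 5533 of all 22180 genes did. Of 12 leukocyte markers 2 were higher (Cd68 by 1.32 and Fcer1g by 0.36) and 10 did not pass. In these 2 lists 8 and 6 markers were dim in both lines. Over all genes, 7.46% passed as higher and 5.92% as lower. Xist also differed, at 4.81 ± 0.07 in the wild-type and 11.06 ± 0.04 in the heterozygous line (mean ± SD, n = 3 each). The part of these differences in the results on transporters was not tested.

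Most of the transporter genes differed little between the lines, and the few large differences were all rises. The calcium exchanger gene Slc24a3 rose by 3.83 and Slc24a4 by 2.36, and the iron exporter gene Slc40a1 rose by 2.46. Slc41a2 and Slc41a3 (magnesium transporters) and Slc11a2 (an iron importer) rose by 0.61 to 1.04. The 3 genes that fell, Slc31a2 (copper), Slc39a1 (zinc) and Slc41a1 (magnesium), each fell by 0.44 or less. In RNA from a whole culture, fewer cells that express a gene and less RNA per cell cannot be told apart.

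In all, 9 of the 39 genes passed limma at a Benjamini-Hochberg adjusted p below 0.05, or 23.1%, where 13.4% of all genes passed. Of these, 6 were higher, where 7.46% of all genes were, and 3 lower, where 5.92% were. At least 2-fold differences were found for 4 of the 39, all higher, where 3.53% of all genes passed with such a difference. For 20 of the 39 (9 higher, 11 lower), no array of one line fell within the range of the other, where this held for 31.6% of all genes. The median difference was −0.06 against 0.001 over all genes, and the median size of difference 0.15 against 0.12. No filter on low signal was applied. With genes dim on average left out, 11 of 30 transporters passed, beside 21.3% of the 14668 genes then tested. In 8 of the 39 genes and in 7249 of all 22180 both lines were dim, and in Slc24a3 and Slc39a4 only the wild type was. All 9 genes that passed were above that level in the heterozygous line.

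**Figure D1:**
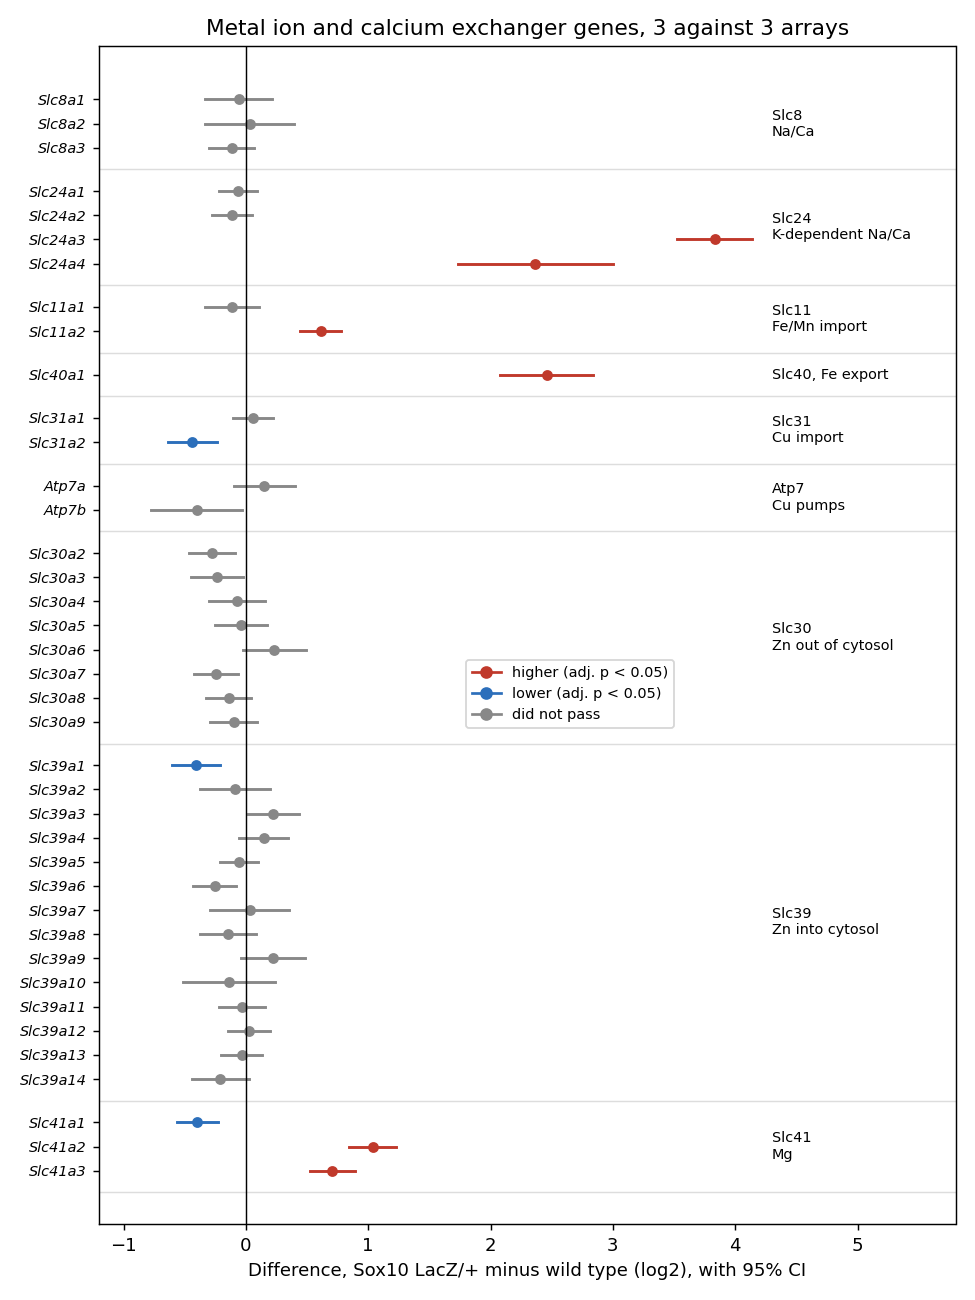
Log2 difference in signal between the Sox10 LacZ/+ and the wild-type line (x axis) for each of the 39 transporter genes (y axis, by family), with the 95% confidence interval of limma's fit, 3 arrays per line. Red and blue mark the 6 genes that were higher and the 3 that were lower at an adjusted p below 0.05; the rises reach 3.83 (Slc24a3), while no fall exceeds 0.44 in size.

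The Slc24 family encodes exchangers that carry calcium and potassium against sodium. Slc24a3 (NCKX3; chromosome 2) had signals of 4.76, 5.21 and 4.70 in wild-type replicates 1 to 3 and of 8.72, 8.77 and 8.68 in the heterozygous arrays. It went from at or near the dim range to a clear signal in every heterozygous array, so array background bears on how large the rise appears. The difference was 3.83 (SE 0.13, adjusted p 8.59e-07), or 14.2-fold.

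Slc24a4 (NCKX4; chromosome 12), a gene in which human variants are linked to hair and eye colour, had 8.42, 9.35 and 8.11 in the wild-type and 10.96, 10.99 and 11.02 in the heterozygous arrays. Wild-type replicate 2 was the high array of its line, yet all heterozygous arrays lay above it. The difference was 2.36 (95% confidence interval 1.73 to 3.00, adjusted p 0.000839), or 5.15-fold, and without wild-type replicate 2 it was 2.73. Adjusted p-values ranged from 3.88e-06 to 0.0082 over the alternatives.

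The other Slc24 genes gave low signals. Slc24a1, known from photoreceptors, had 5.54, 5.56 and 5.56 in the wild-type and 5.50, 5.44 and 5.51 in the heterozygous arrays. Slc24a2, a neuronal exchanger gene, was dim in both lines, with 4.90, 4.81 and 4.93 against 4.75, 4.78 and 4.76. Their arrays did not overlap, but the differences of −0.07 and −0.12 did not pass (adjusted p 0.616 and 0.372 by limma).

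The Slc8 genes encode sodium/calcium exchangers that need no potassium, and all 3 were dim in both lines. Slc8a3, the brightest of them on average, had 4.87, 5.0 and 4.92 in the wild-type and 4.90, 4.79 and 4.74 in the heterozygous arrays. Slc8a1, Slc8a2 and Slc8a3 differed by −0.06, 0.03 and −0.12, and 0 of 3 passed by limma (0 at an unadjusted p below 0.05). At these signals a difference in transcript level would be hard to detect.

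Of the iron transporter genes of the Slc11 and Slc40 families, Slc40a1 and Slc11a2 rose and Slc11a1 did not pass. Slc40a1 (chromosome 1) encodes ferroportin, the exporter through which iron leaves cells. It had 6.63, 6.17 and 6.89 in the wild-type arrays and 8.96, 9.09 and 9.02 in the heterozygous arrays. Every heterozygous array lay more than 2 log2 units above every wild-type array. The difference was 2.46 (95% confidence interval 2.08 to 2.84, adjusted p 3.75e-05), or 5.50-fold, and without wild-type replicate 2, the low array, it was 2.26.

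Slc11a2 (chromosome 15) encodes DMT1, which brings ferrous iron and other divalent metals into the cytosol from endosomes or from outside the cell. It had 9.49, 9.44 and 9.40 in the wild-type and 9.99, 10.11 and 10.07 in the heterozygous arrays. The spread within each line was small beside the difference of 0.61 (SE 0.07, adjusted p 0.000913), or 1.53-fold. Slc11a1, the related transporter of phagocyte vesicles, had signals of 5.25 to 5.60 over all arrays and differed by −0.12 (adjusted p 0.523). The genes of the exporter ferroportin and of the importer DMT1 were thus both higher in the heterozygous line. This did not extend to Tfrc, the transferrin receptor gene, or to Slc39a14, which also carries iron. They differed by −0.12 and −0.21 and did not pass (adjusted p 0.706 and 0.248 by limma).

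**Figure D2:**
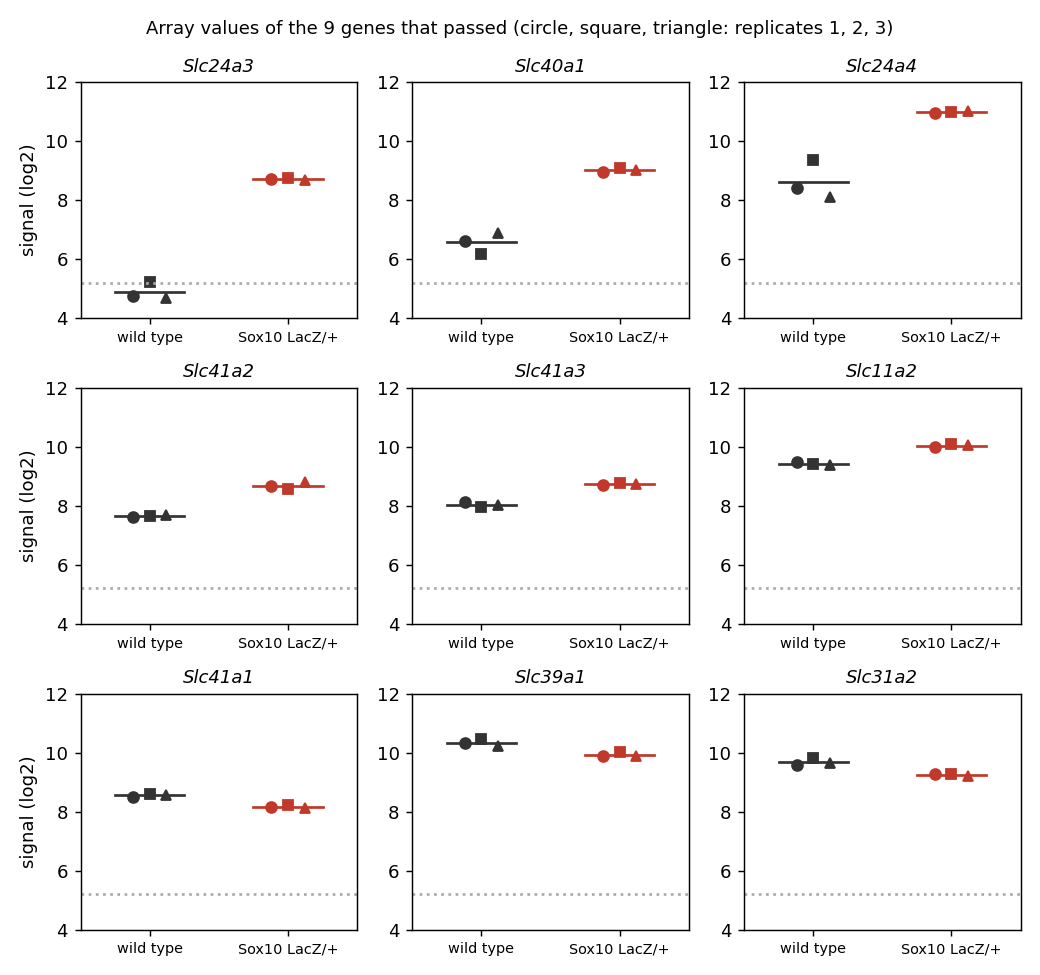
Log2 signal (y axis) on each array of the wild-type (black) and the Sox10 LacZ/+ line (red) for the 9 transporter genes that passed; marker shapes give replicates 1 to 3, horizontal bars the means and the dotted line the 40th percentile among probe sets. In each panel the arrays of the lines do not overlap. Wild-type replicates 1 and 3 of Slc24a3 lie below the dotted line, and replicate 2 (5.21) lies just above it.

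Of the copper genes 1 fell and 3 did not pass. Slc31a2 (CTR2; chromosome 4), a relative of the main copper importer that acts on its processing and on stored copper, had 9.59, 9.85 and 9.66 in the wild-type and 9.29, 9.28 and 9.22 in the heterozygous arrays. All heterozygous arrays lay below all wild-type arrays. The difference was −0.44 (SE 0.09, adjusted p 0.0128), a 1.35-fold fall. The call was lost without heterozygous replicate 2 (adjusted p 0.0519) or 3 (0.0646), in a range of 0.00772 to 0.0646 over all alternatives.

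Slc31a1 (CTR1), the main copper importer gene, had 10.23, 10.28 and 10.17 against 10.29, 10.27 and 10.29. Its arrays overlapped, and the difference of 0.06 had a 95% confidence interval of −0.10 to 0.22. Atp7a (chromosome X), the copper pump gene that serves tyrosinase, had 9.56, 9.74 and 9.38 in the wild-type and 9.79, 9.59 and 9.74 in the heterozygous arrays. It differed by 0.15 (95% confidence interval −0.10 to 0.40, adjusted p 0.465). Atp7b, the copper pump gene known from liver, was low, with 5.40, 6.04 and 5.69 against 5.35, 5.13 and 5.44, and differed by −0.40 (95% confidence interval −0.78 to −0.03, adjusted p 0.167).

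Zinc transporter genes made up 22 of the 39, and 1 of them passed. Slc39a1 (ZIP1; chromosome 3), a zinc importer gene of the plasma membrane, had 10.35, 10.47 and 10.25 in the wild-type and 9.91, 10.03 and 9.91 in the heterozygous arrays. Each heterozygous array lay below each wild-type array. The difference was −0.41 (SE 0.08, adjusted p 0.0161), a 1.33-fold fall. The call was lost without wild-type replicate 1 (adjusted p 0.0515) or heterozygous replicate 1 (0.0751) or 3 (0.0768), in a range of 0.00774 to 0.0768 over all alternatives.

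Of the other 13 Slc39 genes, 5 had arrays that did not overlap between the lines and did not pass. Over all genes, 31.6% had arrays that did not overlap. Slc39a6 (ZIP6), a plasma membrane importer gene, had 10.09, 10.05 and 10.08 in the wild-type and 9.79, 9.74 and 9.92 in the heterozygous arrays. Slc39a9 (ZIP9), the brightest Slc39 gene on average, had 10.40, 10.54 and 10.10 against 10.57, 10.54 and 10.60. For Slc39a9, the highest wild-type and the lowest heterozygous array print the same at 2 decimals. Slc39a14 (ZIP14), which also carries iron and manganese, had 9.25, 9.47 and 9.11 against 9.08, 9.08 and 9.05. Slc39a3 (ZIP3) had 8.40, 8.10 and 8.19 against 8.48, 8.43 and 8.45, and Slc39a5 (ZIP5) had 6.69, 6.70 and 6.69 against 6.67, 6.61 and 6.64. Slc39a6, Slc39a14 and Slc39a5 were on the lower side in the heterozygous line, by −0.26, −0.21 and −0.06, and Slc39a9 and Slc39a3 on the higher side, by 0.22 and 0.23. The adjusted p of Slc39a6 was 0.0677 by limma, the lowest of the 5. It was 0.0421 with dim genes left out and 0.0385 with a trended prior, in a range of 0.0385 to 0.231 over the alternatives.

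The remaining Slc39 genes overlapped between the lines. Slc39a7 (ZIP7), which releases zinc from the endoplasmic reticulum, differed by 0.03, Slc39a13 (ZIP13), an intracellular zinc transporter gene, by −0.03, Slc39a10 by −0.14 and Slc39a11 by −0.03. Slc39a10 had its highest value, 9.26, in wild-type replicate 2, against 8.56 and 8.74 in the other wild-type arrays and 8.70 to 8.72 in the heterozygous arrays. Slc39a4, the importer gene of intestinal zinc uptake, differed by 0.15, Slc39a2 by −0.09, Slc39a8 by −0.15 and Slc39a12 by 0.03. Signals of these 4 genes were low, with line means of 4.61 to 5.24.

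Of the 8 Slc30 genes 0 passed by limma, and 3 had an unadjusted p below 0.05, where 5533 of all 22180 genes did. Slc30a7 (ZnT7), which loads zinc into the Golgi apparatus, had 9.87, 9.70 and 9.88 in the wild-type and 9.55, 9.56 and 9.60 in the heterozygous arrays. Its difference of −0.25 did not pass (adjusted p 0.0863), but did without wild-type replicate 2 (adjusted p 0.0184) and with array weights (0.0274), in a range of 0.0184 to 0.235 over the alternatives. Slc30a2 (ZnT2), a vesicular zinc transporter gene, had 6.32, 6.24 and 6.19 against 5.89, 6.08 and 5.96, a difference of −0.28 (adjusted p 0.0634). It passed with dim genes left out (adjusted p 0.041) and with array weights (0.0338), in a range of 0.0338 to 0.221 over the alternatives. Slc30a3 (ZnT3), known from synaptic vesicles, had 6.45, 6.57 and 6.72 against 6.42, 6.29 and 6.32, a difference of −0.23 (adjusted p 0.154).

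Slc30a6 (ZnT6), a Golgi zinc transporter subunit gene, had 9.64, 9.33 and 9.73 in the wild-type and 9.73, 9.81 and 9.85 in the heterozygous arrays, and differed by 0.23 (adjusted p 0.254). The highest wild-type and the lowest heterozygous array of this gene nearly touched. Slc30a5 (ZnT5), whose protein pairs with ZnT6, was the brightest Slc30 gene on average, with 10.52, 10.46 and 10.73 against 10.56, 10.45 and 10.59, and differed by −0.04. Slc30a4 (ZnT4) differed by −0.07 and Slc30a9 by −0.10. Slc30a8, the zinc transporter gene of insulin granules, was dim in both lines (line means 3.49 and 3.35) and differed by −0.14.

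All 3 Slc41 genes passed, in both directions. Slc41a2 (chromosome 10) encodes a magnesium transporter and had 7.62, 7.66 and 7.70 in the wild-type and 8.67, 8.59 and 8.82 in the heterozygous arrays. The lines were far apart beside the spread of each. The difference was 1.04 (SE 0.08, adjusted p 0.000106), or 2.05-fold.

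Slc41a3 (chromosome 6), a magnesium transporter gene linked to mitochondria, had 8.15, 7.96 and 8.03 in the wild-type and 8.70, 8.79 and 8.77 in the heterozygous arrays. The difference was 0.71 (SE 0.08, adjusted p 0.000669), or 1.63-fold. Genes on chromosome 6 were higher in the heterozygous line as a whole: the 710 that were not dim on average had a median difference of 0.24, against 0.01 over all 14552 such genes with a position, and 33.7% of them passed as higher, against 10.5%. The part of that shift in the rises of Slc41a3 and of the chromosome 6 markers Mitf, Col1a2 and Vwf was not tested.

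Slc41a1 (chromosome 1), which encodes the plasma membrane sodium/magnesium exchanger, had 8.52, 8.62 and 8.58 in the wild-type and 8.16, 8.24 and 8.13 in the heterozygous arrays. The arrays did not overlap, and the difference was −0.40 (SE 0.07, adjusted p 0.00925), a 1.32-fold fall. Without heterozygous replicate 3 the call was lost (adjusted p 0.0548; 0.00553 to 0.0548 over the alternatives). Leaving out that array ended all 3 calls of lower genes at once, while the 6 calls of higher genes kept their side with each single array left out.

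**Figure D3:**
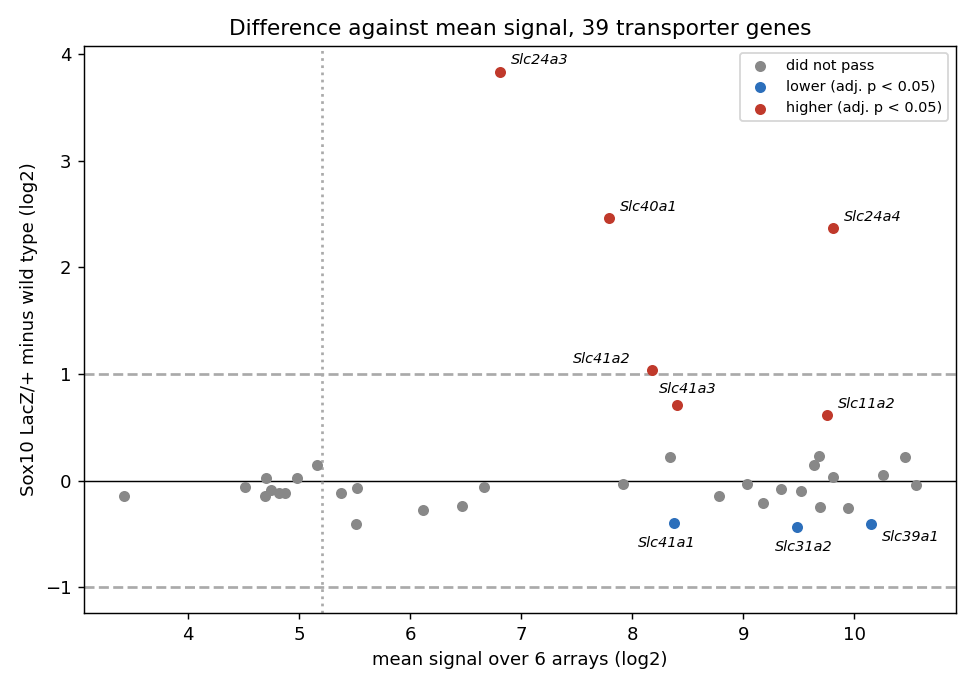
Log2 difference between the lines (y axis) against the mean signal over all 6 arrays (x axis, log2) for the 39 transporter genes; the dotted vertical line is the 40th percentile among probe sets and dashed lines mark 2-fold differences. All 9 genes that passed have a mean signal above that line, Slc24a3, dim in the wild type, only through its heterozygous arrays. Of the 9 genes, 4, all higher, lie at or past 2-fold.

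Replicates were tight in the heterozygous line. Over the 39 genes the median SD was 0.06, against 0.13 in the wild type, beside 0.08 and 0.12 over all genes. Wild-type replicate 2 was the highest wild-type array for 19 of the 39 genes and the lowest for 11.

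Sequence before the start sites was set beside these values for the genes that moved. RefSeq windows of build GRCm38.p6, from 250 bases before to 50 after a start site, were given for 33 of the 39 genes (40 windows), among them 7 of the 9 that passed; Slc40a1 and Slc11a2 had none. Both strands were searched for the SOX core ACAAAG or ACAATG, the MITF-bound box TCATGTG or TCACGTG and the core of the metal response element, TGCACNC or TGCGCNC, to which the zinc sensor MTF1 binds. The letters of the SOX core were in 0 of the 8 windows of the genes that passed, in 8 of the 40 windows and in 28.6% of all 32851 windows. The MITF box was in 1 of the 8, in 2 of the 40 and in 7.4% of all. The metal response core was in 5 of the 8 windows, in 20 of the 40 and in 25.7% of all, and the GC content of the windows was higher for these genes, with a median of 60.5% against 52.7%. A match is a run of letters and not a shown binding site.

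The matches in genes that passed are printed 5′ to 3′ on the gene's strand, each with 10 bases on either side, the match in capitals. They are shown because metal response core letters stood both in genes that rose (Slc24a3, Slc41a2, Slc41a3) and in genes that fell (Slc31a2, Slc41a1).
Slc24a3, chr2:145167592-145167618, plus strand: gaccccgagcTGCACTCccgcagcctg
Slc24a3, chr2:145167785-145167811, plus strand: gagggaccccGAGCGCAgggaggcggc
Slc41a2, chr10:83337836-83337862, minus strand: cctcccagaaGAGCGCAacgaacgact
Slc41a3, chr6:90619026-90619052, plus strand: cccatggcacGTGTGCAgaggacacag
Slc41a1, chr1:131827771-131827797, plus strand: gggaactcagGAGCGCAgcacccgccc
Slc31a2, metal response core, chr4:62286181-62286207, plus strand: cttttaatttTGCACTCaacatgtgtt
Slc31a2, MITF box, chr4:62286419-62286445, plus strand: ctcaccgggcCACGTGActcgcgtggc

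The same run of letters, GAGCGCA, stood in Slc24a3 and Slc41a2, which rose, and in Slc41a1, which fell, and also in windows of Slc30a4 and Slc39a11, which did not pass. The second Slc24a3 window and the windows of Slc24a4 and Slc39a1 held none of the motifs searched. Slc24a3, with the largest rise of the 39 genes, has a GC-rich sequence before its first start site (80.7% GC over its 300-base window), printed here for the 250 bases before the start with the metal response core in capitals.
Slc24a3, chr2:145167525-145167774, plus strand: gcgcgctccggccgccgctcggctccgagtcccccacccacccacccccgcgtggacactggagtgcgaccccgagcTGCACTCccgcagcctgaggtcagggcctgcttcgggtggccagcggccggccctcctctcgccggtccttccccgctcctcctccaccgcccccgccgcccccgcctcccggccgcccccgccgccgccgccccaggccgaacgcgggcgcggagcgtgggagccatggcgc

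Other genes of metal and calcium handling were taken from 5 lists. Metallothioneins are small proteins that bind zinc and copper and are induced through MTF1 when free zinc rises. Their list held Mt1, Mt2, Mt3 and Mt4, and also Mtf1 and Mtf2, which encode no metallothionein. Of these 6 genes 0 passed by limma (0 at an unadjusted p below 0.05), and the list median was −0.06. Mt1 had 9.46, 9.48 and 9.39 in the wild-type and 9.42, 9.44 and 9.54 in the heterozygous arrays, a difference of 0.02 (95% confidence interval −0.15 to 0.19). Mt2 had 10.58, 10.73 and 10.56 against 10.52, 10.58 and 10.57, a difference of −0.06 (95% confidence interval −0.24 to 0.11).

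Of 28 genes for iron uptake, storage and sensing, 1 rose, 3 fell and 24 did not pass. The share that passed was 14.3%, near the 13.4% of all genes, and below the 21.3% in the fit without dim genes. Dim in both lines were 4 of the 28, and the list median was −0.04. Cp, which encodes ceruloplasmin, a copper-containing oxidase that acts with ferroportin in iron export, had 6.53, 4.99 and 6.64 in the wild-type and 8.81, 8.57 and 8.59 in the heterozygous arrays. Cp and the ferroportin gene Slc40a1 were thus both higher, and wild-type replicate 2 gave the lowest value of each. The difference of Cp was 2.60 (SE 0.39, adjusted p 0.00334), and 2.07 without that array. Hfe, whose protein binds the transferrin receptor and takes part in iron sensing, had 8.12, 7.36 and 7.98 against 5.90, 6.07 and 5.90. It fell by 1.86 (SE 0.18, adjusted p 0.00032).

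Hmox1, the heme oxygenase gene that frees iron from heme, differed by −0.90 (adjusted p 0.0131) and Slc25a28, a mitochondrial iron importer gene, by −0.37 (adjusted p 0.0154). The call of Hmox1 ended when heterozygous replicate 1 (adjusted p 0.0599) or 2 (0.0517) was left out, and that of Slc25a28 without heterozygous replicate 1 (0.076), 2 (0.0557) or 3 (0.0629). Adjusted p-values ranged from 0.00302 to 0.0599 for Hmox1 and from 0.00948 to 0.076 for Slc25a28 over the alternatives.

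Of 16 genes for copper chaperones and copper enzymes, 1 rose, 3 fell and 12 did not pass. The share that passed was 25%, against 13.4% of all genes, or 21.3% in the fit without dim genes. Dim in both lines were 2 of the 16, and the list median was −0.10. Tyr, the tyrosinase gene, fell by 2.10, while the copper supply genes Atp7a and Slc31a1 did not pass. Loxl1 and Loxl3, which encode copper-dependent enzymes that cross-link collagen and elastin, differed by −0.62 (adjusted p 0.00101) and −0.41 (adjusted p 0.0167). Sod3, the extracellular copper-zinc superoxide dismutase gene, rose by 0.82 (SE 0.12, adjusted p 0.00284). Loxl3 lost its call without any 1 of the heterozygous arrays (adjusted p 0.0676, 0.0662 and 0.0718 without replicates 1 to 3; 0.00317 to 0.0718 over the alternatives).

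Genes of calcium pumps, stores and mitochondrial uptake numbered 25, of which 1 rose, 6 fell and 18 did not pass. The share that passed was 28%, against 13.4% of all genes, or 21.3% in the fit without dim genes. Dim in both lines were 2 of the 25, and the list median was −0.10. Itpr3, which encodes a calcium release channel of the endoplasmic reticulum, had 9.29, 9.33 and 9.18 in the wild-type and 6.77, 6.89 and 6.64 in the heterozygous arrays, a difference of −2.51 (SE 0.09, adjusted p 9.62e-07). Its relative Itpr2 (chromosome 6) had 7.52, 7.41 and 7.60 against 8.34, 8.32 and 8.29, a rise of 0.80 (SE 0.08, adjusted p 0.000283). The part of the shift of chromosome 6 in the rise of Itpr2 was not tested. Stim1, the sensor of calcium in the endoplasmic reticulum that opens store-operated channels, had 10.15, 9.60 and 9.91 against 8.05, 8.09 and 8.02, a difference of −1.84 (SE 0.13, adjusted p 5.58e-05).

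Atp2b4, a plasma membrane calcium pump gene, had 8.80, 5.84 and 8.72 in the wild-type and 5.12, 5.12 and 5.33 in the heterozygous arrays. Wild-type replicate 2 was close to the heterozygous arrays, whose mean was dim, so array background bears on the size of the fall. The difference was −2.60 (SE 0.70, adjusted p 0.0466), and −3.57 (adjusted p 8.64e-07) without wild-type replicate 2. The call was lost with any other single array left out, with adjusted p-values of 0.154 and 0.148 without wild-type replicates 1 and 3 and of 0.134, 0.139 and 0.116 without heterozygous replicates 1 to 3 and with eBayes in its robust form (0.0622), in a range of 8.64e-07 to 0.154 over the alternatives. Slc8b1, the mitochondrial sodium/calcium exchanger gene that the symbol rule leaves out, differed by −0.53 (adjusted p 0.0101) and was singled out after its value was seen. Its call ended when heterozygous replicate 1 was left out (adjusted p 0.0502; 0.00189 to 0.0502 over the alternatives).

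Of 18 other genes in a list for magnesium and manganese handling, which also holds the zinc transporter gene Tmem163, 3 rose, 2 fell and 13 did not pass. The share that passed was 27.8%, against 13.4% of all genes, or 21.3% in the fit without dim genes. Dim in both lines were 0 of the 18, and the list median was −0.06. Nipal3, of the NIPA family of magnesium transporters, differed by −0.53 (SE 0.08, adjusted p 0.00452). Nipal1, of the same family, was dim in the wild type (4.76 ± 0.08 against 5.55 ± 0.23) and rose by 0.79 (adjusted p 0.00361). Tmem163, whose protein sits in vesicles, rose by 0.37 (adjusted p 0.0237), and Mrs2, the magnesium channel gene of mitochondria, by 0.34 (adjusted p 0.044).

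Tmem163 and Mrs2 passed narrowly. Tmem163 lost its call without wild-type replicate 1 (adjusted p 0.0741) or 3 (0.0697) or heterozygous replicate 2 (0.102) or 3 (0.0971), in a range of 0.0143 to 0.102 over the alternatives. Mrs2 lost its call with any single array other than wild-type replicate 2 left out (adjusted p 0.121 and 0.0958 without wild-type replicates 1 and 3, and 0.148, 0.158 and 0.0894 without heterozygous replicates 1 to 3), after quantile normalization (0.0556) and with replicate number as a block (0.0692), in a range of 0.0129 to 0.158.

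**Figure D4:**
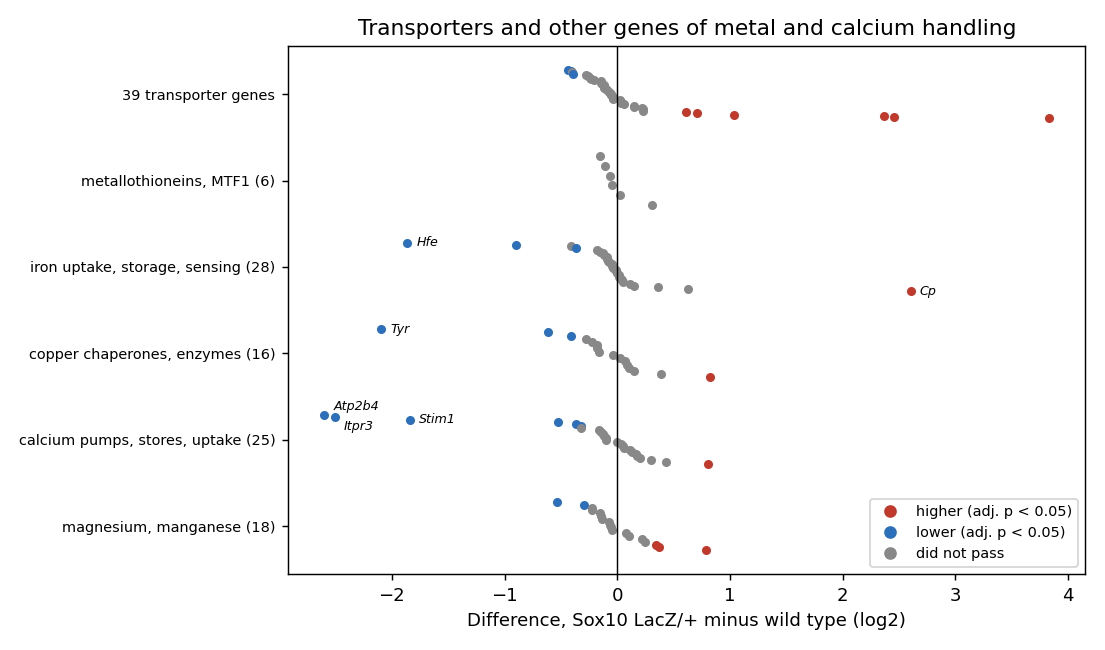
Log2 differences between the lines (x axis) for the 39 transporter genes and for 5 lists of other genes of metal and calcium handling (rows, with the number measured in brackets); each point is 1 gene, red and blue mark genes that passed as higher or lower, and names are given in the lists for those past 2-fold. Falls past 2-fold occur in the lists (Hfe, Tyr, Atp2b4, Itpr3, Stim1) and not among the 39 transporters, whose past 2-fold differences are all rises.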

How the data were processed

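Expression was measured in 6 samples on 1-colour Affymetrix arrays with biotin-labelled cRNA. The deposited values are log2 signals made by the authors with RMA, per the submitters' processing notes, which also name Partek. RMA subtracts background, makes the arrays comparable and summarises the probes of each probe set. The sources used here do not give software versions, settings or the authors' test. Of 41345 probe sets, GEO's platform annotation gave 1 gene symbol for 23521 and several for 1814, and left 16010 unnamed. For a gene with several probe sets, the brightest on average was kept. Chromosomes and windows come from RefSeq (GRCm38.p6), which held all 39 transporter symbols.

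The comparison used limma (version 3.58.1, R version 4.3.3; linear fit with empirical Bayes moderation, 2-sided, 4 residual and 7.87 total degrees of freedom), with p-values adjusted over all 22180 genes, without further scaling or a filter on dim genes. The number of arrays limits the precision. The fit was tested on simulated data. The genes, lists, motifs and tests were chosen with earlier results of these data known. Every transporter is named, with its 6 values where it passed, its arrays did not overlap or it was the brightest of its family. Each list names up to 4 passing genes by size of difference, or the 2 brightest where none passed. Tested alternatives were centring, quantile normalization, leaving out dim genes, averaging probe sets, eBayes with trend or robust, array weights, a replicate block, other thresholds and leaving out each array.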

Additional observations from a re-analysis of the deposited data

How the results depend on the processing

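With 1 array left out at a time, 6 transporter genes were higher in each case, and between 0 (without heterozygous replicate 3) and 4 (without wild-type replicate 2) were lower. Lower genes numbered 5 with dim genes left out, 5 with array weights, 1 at an adjusted p below 0.01 and 0 at 2-fold. Over all genes, counts with 1 array left out ran from 979 to 2308 higher and from 779 to 1914 lower. At an adjusted p below 0.01 they were 888 and 700, and at 2-fold 430 and 352. The cause of these shifts was not tested, apart from the stricter thresholds. With the replicate number as a block, 9 transporter genes passed, all 9 of them among those called without it, and 2512 of all genes. Same-numbered arrays did not deviate together (r of 0.007, 0.016 and −0.004 across genes). With 3 arrays per line this cannot show whether the numbers pair the samples, and the labels do not say. Of the transporters and the genes of metal and calcium handling named as passing, the block ended the call of Mrs2 alone.

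Of the 39 genes, 24 kept direction and side of the threshold with each array left out and under every alternative fit that included them. Among the 24, Slc24a2, Slc30a8, Slc39a4, Slc39a8 and Slc8a3 were absent from the fit with dim genes left out. Of the 24, 6 were called, and at 2-fold 4 of these 6 remained, without Slc11a2 and Slc41a3. Direction turned for 9 genes that never passed: Slc30a4 with array weights (0.00293), and, with 1 array left out, Slc30a5 (−0.0932 to 0.0398), Slc39a10 (−0.283 to 0.0637), Slc39a11 (−0.0862 to 0.00819), Slc39a12 (−0.0109 to 0.0684), Slc39a2 (−0.179 to 0.0448), Slc39a7 (−0.125 to 0.167), Slc8a1 (−0.188 to 0.0056) and Slc8a2 (−0.103 to 0.167). Mt1 turned as well (−0.0156 to 0.0434). Centring arrays moved the median of all genes to 0.03 at most. Other probe sets of a gene could not be compared, since 0 of the 39 genes had several.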
